A study of Homo sapiens with 12 samples.

Results

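The regions described here had an N6-methyladenosine (m6A) peak interval in each of 3 peak lists named con-1, con-2 and con-3, and in none of the lists named rapamycin-4, rapamycin-5 and rapamycin-6. They were chosen by the presence and absence of intervals in the 6 lists. Intervals that shared at least 1 bp on one strand were combined, which gave 20742 regions, and 2554 of them met the rule (12.3%). This count follows from the rule, so it is a description and supports nothing further. The members covered 2.32 Mb, and 1360 of them (53.2%) lay on the plus strand. Among regions in con-1, con-2 and con-3 that were also in 1, 2 or 3 of the other lists, 49.2%, 52.2% and 49.7% did.

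The samples are wild-type H460 cells, an established line of human large cell lung cancer. The study treated them with 100 nM rapamycin for 24 h to induce autophagy, and set them beside cells without treatment. Each arm has 3 input and 3 immunoprecipitated (IP) libraries. Separate cultures are not stated in the labels, and a peak list holds no expression value with which the cell line could be checked.

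The links between lists and samples disagree with the names of the lists. The GEO record links con-1 to input 1 of the untreated arm, con-2 to IP 1, con-3 to input 2, rapamycin-4 to IP 2, rapamycin-5 to input 3 and rapamycin-6 to IP 3, also of the untreated arm. By the record, therefore, the lists named for rapamycin belong to untreated cells, and only for con-1 do the word and number in the name match the linked sample. No list was assigned to an arm. The words con-named and rapamycin-named refer to names only, and no value below compares treated with untreated cells. Since no list could be placed in a group, and regions are not replicates of a condition, no test was made over lists or regions.

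m6A is a methyl group that a nuclear methyltransferase complex places on adenosines of many mRNAs, with METTL3 as its catalytic subunit. FTO and ALKBH5 can remove it, and proteins of the YTH and IGF2BP families bind it and alter the splicing, translation or decay of the transcript. In MeRIP-seq, fragmented RNA is pulled down with an antibody against m6A, and stretches enriched over the input RNA are reported as peaks. Rapamycin inhibits the kinase complex mTORC1, which restrains autophagy when nutrients are plentiful. A peak that is missing from a list may have been below the caller's threshold, so a missing interval does not show that a transcript lacked the mark.

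The con-named lists were the longer ones. They held 12040 intervals in con-1, 14908 in con-2 and 12288 in con-3, against 4837 in rapamycin-4, 4530 in rapamycin-5 and 4899 in rapamycin-6. Member regions took up 21.3% of the intervals of con-1, 17.4% of con-2 and 20.9% of con-3. With each list reduced to its 4530 best-scored intervals, 291 regions met the rule in place of 2554. Of these, 271 were members as deposited and 20 were not. The cut makes the lists equal in length and also drops the weaker con-named intervals, and the effects of the 2 cannot be told apart. It also drops the lowest-scored intervals of rapamycin-4 and rapamycin-6. Of the regions held by all con-named lists, 35.3% (2554 of 7229) were members as deposited and 11.8% (291 of 2465) at equal length. With a minimum score of 260, the median over the lists pooled, the share was 49.5% (1868 of 3772). This minimum also removes rapamycin-named intervals, whose scores were lower. In regions of all 6 lists the median score was 1119, 3100 and 2299 in con-1, con-2 and con-3. It was 367, 351 and 308 in rapamycin-4, rapamycin-5 and rapamycin-6. With con-1 left out, so that only con-2 and con-3 had to hold a region, the count was 4185. The opposite pattern was rarer, since of 2007 regions held by all rapamycin-named lists, 59 (2.94%) had no con-named interval. As the con-named lists are longer, this share and the 35.3% are not a like comparison. The opposite share was not computed at equal length. Depth cannot be read from the lists, and its part in these counts was not tested.

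The median member score was near the middle of each con-named list, with a wide spread around it. The authors' score is 1 value per interval on a scale that the sources used here do not give, so it is given here as a percentile within its own list, where 100 is the highest. The lowest scores of a list lie near 70, and many intervals stand at exactly 3100. In con-1, member intervals had a median score of 211 (percentile 45.5), with 10% below 89.4 and 10% above 755. In con-2 the median was 431 (percentile 53.3), with 10% below 117 and 10% above 1906. In con-3 it was 312 (percentile 47.3), with 10% below 107 and 10% above 1343. By percentile, then, the member medians lay around the middle of each con-named list. The 10th to 90th percentiles of members ran from 11.2 to 78.7 in con-1, 18.4 to 82.1 in con-2 and 15.1 to 78.4 in con-3. Over the members the median of the middle percentile was 48.6, and it was 81.4 for the 291 members at equal list length, which by construction keeps only high scores.

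Regions that also had rapamycin-named intervals ranked higher, step by step with the number of such lists. In con-1 the median percentile was 63.0 for regions with 1 rapamycin-named list, 72.4 with 2 and 85.7 with all 3. The same series ran 67.4, 77.8 and 93.9 in con-2, and 62.8, 75.2 and 86.4 in con-3. All 3 con-named lists thus had the members lowest and the regions of all 6 lists highest. Within the rapamycin-named lists the order was alike: the median percentile of intervals in these regions was 30.5 to 35.8 where 1 rapamycin-named list had the region, 48.3 to 50.1 where 2 did and 71.6 to 71.9 where all did.

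**Figure D1:**
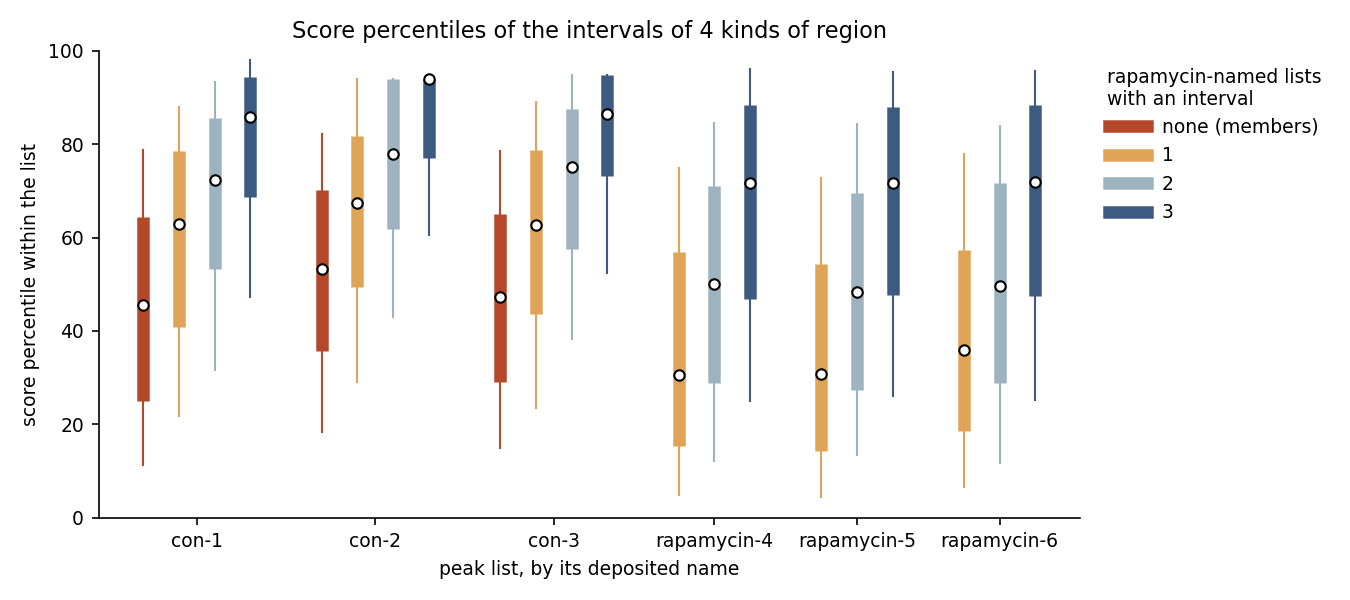
Score percentile within each peak list (vertical axis) for intervals of regions held by all con-named lists, split by how many rapamycin-named lists also had the region. Circles are medians, thick bars the middle 50% and thin lines the 10th to 90th percentile. Members, which have no interval in the rapamycin-named lists, have the lowest medians in con-1 (45.5), con-2 (53.3) and con-3 (47.3).

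The share of members among the regions of all con-named lists fell along the score. The median percentile over con-1, con-2 and con-3 was used to rank these 7229 regions. Below a percentile of 10, 79.0% (49 of 62) were members. Between 40 and 50 the share was 57.2% (433 of 757), and between 70 and 80 it was 25.6% (277 of 1082). From 90 upwards it was 3.56% (43 of 1207), while 64.0% of the regions there were in all 6 lists. From 80 upwards the share was 8.53%. That value was 32.2% with the minimum score of 260, 14.2% without rapamycin-4 and 5.51% when regions were ranked by their lowest percentile. The minimum score also removes rapamycin-named intervals. Score and presence come from the same peak calls, so this is a description of the members and no independent evidence about them.

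**Figure D2:**
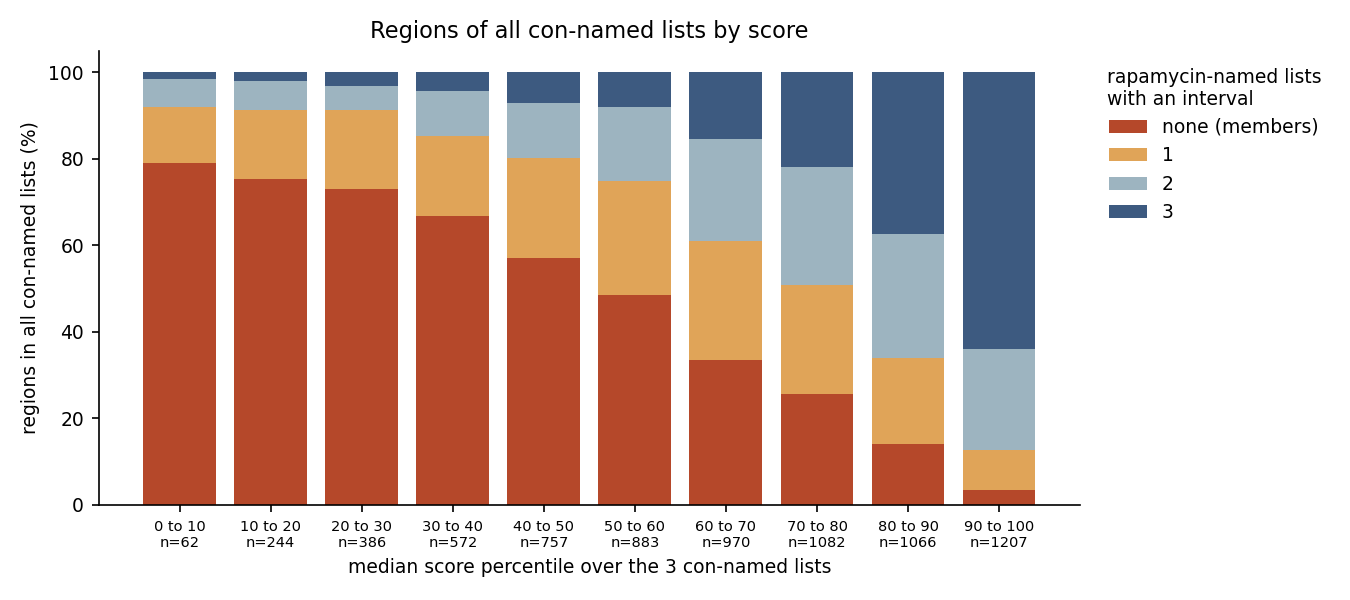
Share of regions held by all con-named lists (vertical axis, percent) that had intervals in 0, 1, 2 or 3 rapamycin-named lists, by the median score percentile over the con-named lists; n is the number of regions. Members made up 79.0% below a percentile of 10 and 3.56% from 90 upwards.

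Scores at the piled-up value of 3100 show the same in counts. In all, 337 regions stood at 3100 or more in con-1, con-2 and con-3 alike. Of these, 262 were in all 6 lists, 50 missed 1 rapamycin-named list, 17 missed 2 and 8 (2.37%) were members. At least 1 con-named score of 3100 or more was present in 128 members. At the other end, 627 members had at least 1 con-named score under 100, and 7 had all of them under 100.

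The 3 con-named lists ranked the members differently. For each region the difference between the highest and lowest of its con-named percentiles was taken. Its median was 27.8 points in members and 12.4 points in regions of all 6 lists. Regions with 1 rapamycin-named list, at 27.4 points, were close to the members, and those with 2 had 20.9 points. The difference exceeded 25 points in 56.7% of members. That share was 54.8%, 42.0% and 24.4% for regions with 1, 2 and 3 rapamycin-named lists. Regions of all 6 lists crowd towards the top of the scale, which leaves them less room to differ. List con-1 had the lowest score in 1470 members (57.6%) and con-2 the highest in 1375 (53.8%). On percentiles within each list, con-1 was lowest in 44.0% and con-2 highest in 44.5%. Regions with 1, 2 or 3 rapamycin-named lists also had their highest median percentile in con-2. For regions of all 6 lists that median is the percentile of 3100, since 52.7% of their con-2 intervals stood at 3100 or more. A score of 3100 has percentile 98.0 in con-1, 93.9 in con-2 and 94.8 in con-3, so percentiles there are not alike between lists. Across the 2554 members, Spearman's rho between scores was 0.40 for con-1 and con-2, 0.43 for con-1 and con-3 and 0.54 for con-2 and con-3. Across the 1722 regions of all 6 lists it was 0.55, 0.61 and 0.68 for the same pairs.

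Without regard to score, members were narrower than the regions with which they share the con-named lists. Their median width was 577.5 bp, and 10% were up to 124 bp and 10% at least 2106 bp wide. The median was 810 bp for regions with 1 rapamycin-named list, 1043 bp with 2 and 997.5 bp with all 3. Regions under 200 bp made up 22.1% of the members and 10.9% of those in all 6 lists. Joined regions can grow with the number of lists, so the widths of the deposited intervals are given too. In con-1 their median was 539 bp for members and 758, 984 and 955 bp for regions with 1, 2 and 3 rapamycin-named lists. In con-2 the medians were 537, 724, 927 and 935 bp in that order, and in con-3 555.5, 774, 957 and 945.5 bp. Of these kinds of region, members had the narrowest intervals in each con-named list by the median. Regions of 2 con-named lists and no other had a median of 363 bp, and those of a single con-named list 222 bp. The members found at equal list length had a median of 1155 bp, and those above the pooled median score 872 bp.

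Among regions of like score, the difference by width varied along the scale. Without regard to score, 48.8% of con-held regions under 200 bp were members (565 of 1157), and 21.5% of those of 2000 bp or more (288 of 1338). Between percentiles 20 and 40 the share was 69.9% under 500 bp, 69.2% from 500 to 1000 bp and 67.9% above 1000 bp. Between 40 and 60 it was 55.2%, 48.7% and 51.4%, and between 60 and 80 28.8%, 31.1% and 28.7%. Between 80 and 100 it was 7.95%, 9.51% and 8.38% for these widths. The widths stood farthest apart below a percentile of 20, with 83.2% (168 of 202), 69.0% (40 of 58) and 54.3% (25 of 46).

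**Figure D3:**
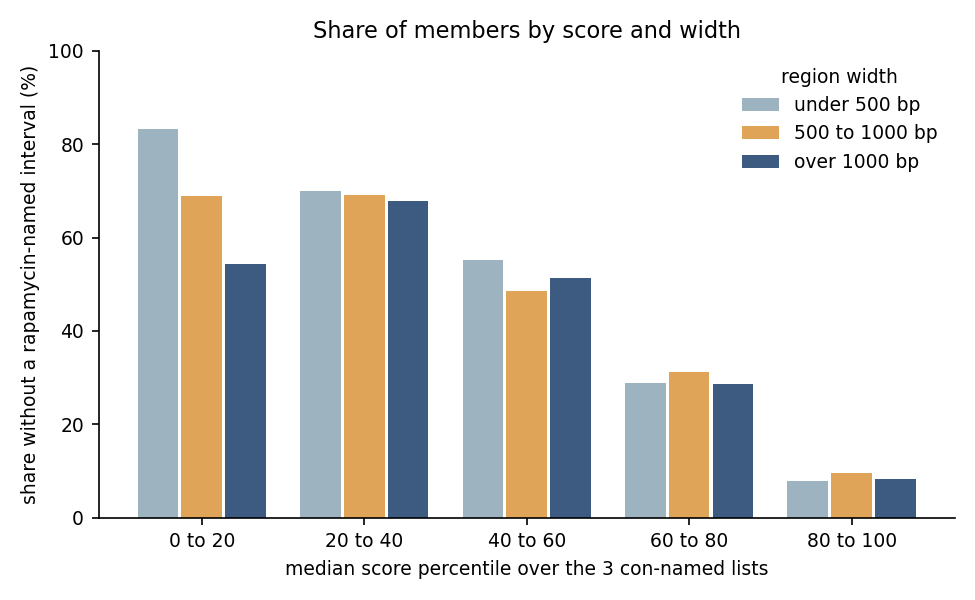
Percent of regions in all con-named lists that had no rapamycin-named interval (vertical axis), by median score percentile in steps of 20 and by region width (colours). The 3 widths stand at 83.2%, 69.0% and 54.3% below 20, and at 28.8%, 31.1% and 28.7% between 60 and 80.

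Most members had the same outline in the con-named lists. A single interval per list was found in 2512 members, and 42 had more than 1 interval in some list. Of the 2512, 1525 (60.7%) had identical 5′ and 3′ ends in con-1, con-2 and con-3. A further 23.4% agreed only at the 5′ end and 11.3% only at the 3′ end, and 4.54% agreed at neither. Members with identical ends had a median width of 320 bp, those without 1136 bp, at nearly the same median score percentile (48.6 and 48.1). In regions of all 6 lists, both con-named ends were identical in 67.4%, only the 5′ end in 24.0% and only the 3′ end in 6.05%. In both kinds of region a shared 5′ end with a differing 3′ end was thus more frequent than the reverse. Both ends were identical in 62.1% of the regions with 1 rapamycin-named list and 62.5% of those with 2, close to the 60.7% of members. Only the 3′ end was identical in 7.66% of the regions with 1 rapamycin-named list and 4.83% of those with 2, beside the 11.3% of members.

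**Figure D4:**
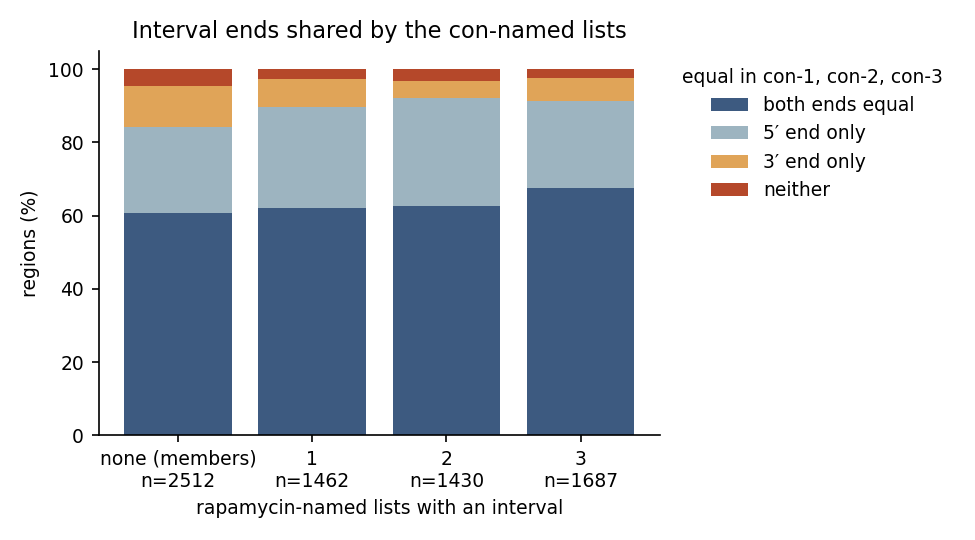
Regions with 1 interval in each con-named list, by whether the 5′ and 3′ ends are identical in con-1, con-2 and con-3 (percent, vertical axis), for regions with 0 to 3 rapamycin-named lists; n is the number of regions. Both ends are identical in 60.7% of members, in 62.1% and 62.5% of regions with 1 and 2 rapamycin-named lists, and in 67.4% of the regions of all 6 lists.

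The 12 members named first are those with the highest value of their lowest con-named percentile, ties going to the wider region. They share a lowest percentile of 93.9, which is that of 3100 in con-2. Coordinates are of build hg19. Of these, 8 had scores of 3100 or more in all con-named lists. The 7 widest of the 8 lay on the minus strand at chr9:135201711-135205886 (4176 bp), chr4:140637593-140641477 (3885 bp), chr12:125396150-125399584 (3435 bp), chr6:56479375-56482216 (2842 bp), chr2:192699032-192701443 (2412 bp) and chr1:93307717-93309752 (2036 bp), and on the plus strand at chr20:61391370-61394123 (2754 bp). The region at chr10:120794541-120795780 (minus, 1240 bp) stood at 3100 in con-1, con-2 and con-3 and is the narrowest of the 8.

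The other 4 of the 12 fell short of 3100 in con-1 alone. At chr16:88493879-88506597 (plus, 12719 bp) the score was 2353 in con-1 and 3100 in con-2 and con-3. At chr6:1312675-1314993 (plus, 2319 bp) con-1 gave 2553, at chr3:192515506-192517439 (minus, 1934 bp) 2797, and at chr5:677865-678893 (minus, 1029 bp) 3048, each with 3100 in the other con-named lists. In 8 of the 12 the intervals of all con-named lists had the same width as the joined region, the exceptions being those on chromosomes 16, 4, 12 and 3.

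The surroundings of these 12 differed widely. The nearest rapamycin-named interval on the same strand was 2730028 bp away for the member on chromosome 2 and 1856018 bp for the one on chromosome 3. It was 567 bp away for the chromosome 6 member at 56479375 and 850 bp for the member on chromosome 10. Upstream of that chromosome 10 member lay chr10:120796631-120796821, only 191 bp wide, which was in all 6 lists, with 3100 in each con-named list and 1898, 1213 and 1551 in rapamycin-4, rapamycin-5 and rapamycin-6. The wider neighbour was therefore reported in the con-named lists alone, although a narrow region close to it was reported in every list.

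Beside the chromosome 6 member, the lists divided the other way round. The member, chr6:56479375-56482216, scored 3100 in con-1, con-2 and con-3. The region 567 bp upstream of it, chr6:56482784-56485513 (2730 bp), had intervals in rapamycin-4 (747), rapamycin-5 (99.3) and rapamycin-6 (430) and in no con-named list. It is 1 of the 59 regions held by the rapamycin-named lists alone. Of the 608 members with a rapamycin-named interval within 10000 bp, 3 had a region of this kind as the nearest, and of all 2554 members 26 had. Among all 7962 regions with a rapamycin-named interval, 59 were of this kind. The second of the 3 pairs was chr11:839721-840480 (minus; 1269, 3100 and 1653 in con-1, con-2 and con-3), 1933 bp from chr11:842414-842529 with 194, 227 and 536 in rapamycin-4 to rapamycin-6. The third was chr17:17408877-17409162 (minus; 533, 223 and 255), 9878 bp from chr17:17397753-17398998 with 478, 616 and 94.3.

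The 10 widest members ran from 5806 to 18173 bp. The widest, chr11:62283374-62301546 on the minus strand, was reported with the same ends in all con-named lists, with scores of 802 in con-1 and 3100 in con-2 and con-3. A region 928 bp upstream, chr11:62302475-62302662 (188 bp), was in all con-named lists (95.9, 952 and 561) and in rapamycin-6 (78.6). No rapamycin-named interval touched the 18173 bp themselves. Second was the 12719 bp region on chromosome 16 described above.

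The rest of the widest members varied between lists. At chr5:10649378-10657900 (plus, 8523 bp) the highest scores were 472 in con-1, 3100 in con-2 and 2632 in con-3. At chr9:116810931-116818875 (plus, 7945 bp) they were 714, 3100 and 3100. At chr6:87964368-87972122 (plus, 7755 bp) con-1 and con-2 were close, at 472 and 479, and con-3 stood at 3100. By contrast, chr16:30789770-30795575 (minus, 5806 bp) scored 2042, 1255 and 2420 with the same width in each list. The remaining 4 were chr4:114274201-114280455 (plus), chr10:97915954-97922067 (plus), chr11:73111818-73117789 (minus) and chr11:108379708-108385602 (minus), whose con-named scores lay between 132 and 1147. Great width thus did not go with high scores in every list.

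**Figure D5:**
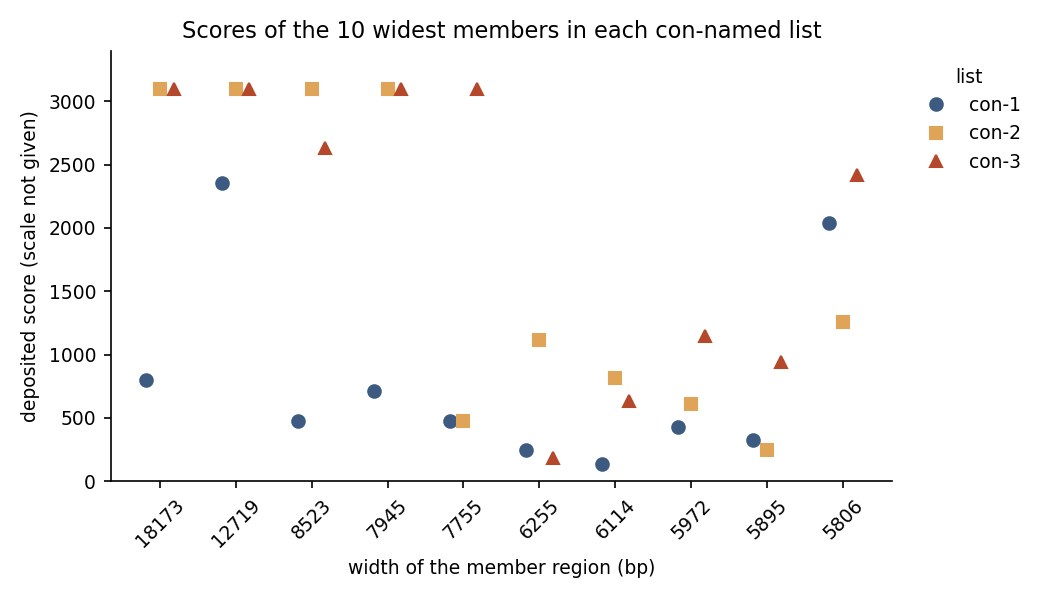
Deposited score (vertical axis, scale not given) of the 10 widest members in con-1, con-2 and con-3, ordered by width in bp. The widest member stands at 3100 in con-2 and con-3 and at 802 in con-1, and the narrowest of the 10 has 2042, 1255 and 2420.

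Most members were far from any rapamycin-named interval on their strand. The median gap was 59259.5 bp, with 608 members (23.8%) within 10000 bp and 64 (2.51%) within 1000 bp. Regions held only by 2 con-named lists had a median gap of 59143 bp, with 843 of 3367 within 10000 bp, and those held by 1 con-named list 59755 bp, with 1624 of 6859. The members thus lay about as far from rapamycin-named intervals as con-named regions that recurred less. The 608 nearer members had a median width of 223.5 bp and a median percentile of 44.6, against 706.5 bp and 49.8 for the 1946 others. With only intervals above the pooled median score in every list, which thins the rapamycin-named lists too, the median gap was 274204 bp. Where a rapamycin-named interval lay within 10000 bp, its region was also held by all con-named lists in 442 of 608 cases (72.7%). For all 2554 members, at any distance, the nearest such region was con-held in 1664 cases (65.2%). Counted over the 7962 regions with a rapamycin-named interval, in place of members, the share was 58.7%.

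At the limit of the rule, the members nearest to a rapamycin-named interval were separated from it by 93 to 422 bp for the first 10. The nearest was chr8:23430157-23432974 (plus, 2818 bp) with 771, 1560 and 2784 in con-1, con-2 and con-3, and the region 93 bp upstream was in rapamycin-4 (168) and rapamycin-5 (261) and in no con-named list. Next were chr3:195451098-195452206 (149 bp; scores 116, 224 and 436), chr17:19646883-19648081 (199 bp; 466, 2527 and 1030), chr16:30236445-30237150 (225 bp; 147, 570 and 132) and chr4:113196831-113197985 (266 bp; 247, 444 and 127). The others of the 10 lay 268 to 422 bp away, on chromosomes 5, 1, 18, 10 and 19. Of all members, 1 lay within 100 bp of a rapamycin-named interval. Joining intervals across 100 bp gave 2557 members in place of 2554.

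Just outside the rule were con-held regions touched by a single rapamycin-named interval. The overlap with a con-named interval was smallest, 48 bp, at chr19:56088891-56091405 (minus), which scored 799, 3100 and 2083 in con-1, con-2 and con-3 and 93.3 in rapamycin-5. The next 4 overlapped by their whole widths of 50 to 54 bp, on chromosomes 1, 1, 4 and 5, with rapamycin-named scores of 125 to 467. Of 1484 such regions, 40 overlapped by up to 100 bp and the median overlap was 716.5 bp. Overlaps close to the 1 bp minimum were therefore not found among them.

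Close neighbours of members were members more often than close neighbours of other con-held regions were. For each region held by all con-named lists, the nearest other such region on the strand was found. Within 10000 bp, 743 members (29.1%) had such a neighbour, and it was a member in 328 cases (44.1%). Over all con-held regions, 35.3% were members. For con-held regions with a rapamycin-named interval, it was a member in 414 of 1539 cases (26.9%). Within 100000 bp the shares were 42.1% for members and 29.3% for the others. Regions so close can lie on the same transcript, and scores of neighbours may be alike, so neighbouring regions are not independent.

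In places several members followed each other. Members made up 35.3% of the con-held regions (2554 of 7229), and the number of runs that this share alone would give was not computed. Along each strand, con-held regions formed 952 single members and 365 runs of 2 members, and the longest unbroken run had 10 members (chromosome 22, positions 42221702 to 48972383, plus strand). Such a run can span many genes. Of the 100 kb windows with any member, 1838 held 1, and 5 windows held 5 or 6. On the minus strand of chromosome 2, the window from 160200001 to 160300000 held 6 con-held regions, all of them members and 45 to 244 bp wide. The best scored of them, chr2:160239070-160239313, had 1258, 1182 and 776 in con-1, con-2 and con-3, and its nearest rapamycin-named interval was 1644892 bp away.

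In 3 of the other dense windows, members stood beside regions that also had rapamycin-named intervals. On chromosome 19 from 10200001 to 10300000 (minus), 6 of 7 con-held regions were members, of 35 to 220 bp, and the highest scores were at chr19:10277274-10277361, with 2173, 3100 and 1192. These members were 696 to 7175 bp from rapamycin-named intervals. On the plus strand of the same chromosome, from 4400001 to 4500000, 6 of 8 were members. On chromosome 12 from 124800001 to 124900000 (minus) 6 of 11 were, and on chromosome 17 from 78200001 to 78300000 (plus) 5 of 5. In the chromosome 17 window chr17:78261614-78262162 (549 bp) scored 1707, 2731 and 1008, and it was the strongest of the 5 by percentile (87.0).

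Members were found on all 24 chromosomes. Chromosome 1 held the most, 232 (9.08% of the members), followed by chromosome 2 with 193 and chromosome 19 with 157. These were 11.0%, 12.8% and 12.1% of all regions on these chromosomes, near the 12.3% over all regions. On chromosome 19, 33.1% of the con-held regions were members. Of the con-held regions of a chromosome, the share that were members was highest on chromosome 18 (45.3%, 53 of 117), chromosome 22 (41.4%, 67 of 162) and chromosome 2 (39.9%, 193 of 484). Leaving aside the Y chromosome with 4 of 19, it was lowest on chromosome X (31.2%, 78 of 250), chromosome 16 (31.8%) and chromosome 1 (32.3%). The con-held regions of chromosomes 18, 3 and 22 also had the lowest median score percentiles, 56.0, 62.8 and 63.7, while the member share of chromosome 3 was 36.4%. The part of score in the chromosome shares was not tested.

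Opposite strands mattered little to the selection. Of the 2554 members, 6 overlapped a rapamycin-named interval on the other strand.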

How the data were processed

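The data are 6 peak lists of 53502 intervals in all. The authors deposited 1 score per interval, without a header or a description of its scale. The intervals carry names of the MACS type. Build hg19 and HISAT2 2.0.4 come from the submitters' processing notes. The caller's version and settings, like the libraries behind a list, were not given in the sources used here, and both depth and counting error are unknown. Positions were written 1-based. Gaps are the free bp between 2 intervals on a strand. A region's percentile per list is that of its best interval, ties averaged. Members and named regions were chosen with earlier results of these data known. Named are the 12 members with the highest lowest percentile, the 10 widest, the 10 nearest to the overlap limit and 5 regions just past it; members of windows with 5 or more members, and pairs beside rapamycin-named regions, were singled out after their values were seen. Genes, transcript features, motifs and sequences were not analysed here, since the tables at hand are of GRCh38 and the lists of hg19. Tables were made in Python 3.11.15 (scipy 1.17.1, numpy 2.4.6, pandas 2.3.3) and figures with matplotlib 3.10.9. The joining, gap and boundary code was tested on simulated data and against bedtools 2.31.1, where 9 of 9 known values were recovered.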

Additional observations from a re-analysis of the deposited data

How the results depend on the processing

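The number of members was 2554 as deposited. Cutting all lists to 4530 intervals gave 291, of which 20 were not members as deposited. By construction the cut removes the weaker con-named intervals, and also the lowest-scored ones of rapamycin-4 and rapamycin-6. A minimum score of 260, the median over the 6 lists pooled, gave 1868, ignoring strand 2555, a reciprocal overlap of 50% 2540, joining across 100 bp 2557 and dropping intervals under 50 bp 2539. With each list left out in turn it ranged from 2994 (without rapamycin-5) to 4185 (without con-1), where fewer lists have to agree. The other values, given in the order deposited, score minimum, equal length and range over left-out lists, were as follows. The median member width was 577.5, 872 and 1155 bp, and 448 to 640 bp. The median score percentile was 48.6, 75.2 and 81.4, and 41.1 to 51.8. Identical ends occurred in 60.7%, 64.1% and 64.5%, and 59.6% to 65.3%. The share of members among con-held regions at a percentile of 80 or more was 8.53%, 32.2% and 8.25%, and 8.53% to 14.2% (the highest without rapamycin-4); the score minimum also removes rapamycin-named intervals. It was 5.51% with the lowest percentile in place of the median. The median gap to a rapamycin-named interval was 59259.5, 274204 and 81297 bp, and 57227 to 78503 bp, and it was 36998 bp on either strand. A value was taken as moved beyond 1.5 times for the count and beyond a 95% binomial limit for the rest. That limit treats regions as independent, so it is a yardstick and no test. By it the median score percentile moved under every alternative made for it. The count moved at equal length and without con-1 only. Each of the other values moved under some alternatives and stayed under others. The median score of the members, in place of the percentile, was 299. Alternatives on transcript position, motifs and genes were not run. No paired analysis was possible because no list was placed in an arm. Depth is unknown, so absence from a list cannot be told apart from a peak under its threshold.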
